A study of Mus musculus with 29 samples.

Results

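Repopulated microglia were compared with microglia that had never been depleted, 3 h after a first dose of lipopolysaccharide (LPS), in 9 sorted libraries out of 29 in the series. The 5 PBL libraries came from mice that received saline, then the CSF1R inhibitor BLZ945, then LPS, and the 4 PL libraries from mice that received saline, then vehicle, then LPS, as the labels assign them, and all genes of the count table were considered. All mice were male C57BL/6J, 10 weeks old at the first intraperitoneal injection. BLZ945 was given by gavage at 169 mg/kg per day for 5 days, from 1 week after that injection, in a vehicle of 20% hydroxypropyl-beta-cyclodextrin that the PL mice received alone, and 1 mg/kg LPS followed 5 weeks after the saline. Brains were taken at 15 weeks of age, and live CD11b-high, CD45-intermediate, Ly6C-negative cells were sorted for polyadenylated RNA sequencing. Both groups had therefore met LPS once, and they differed by design in whether the microglia had been removed and had grown back. The other 4 groups served as reference where stated: PBP (saline, BLZ945, saline) and PP (saline, vehicle, saline) had n = 5 each and met no LPS, and LBL (LPS, BLZ945, LPS) and LL (LPS, vehicle, LPS) had n = 5 each and met it at both injections.

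Microglia are the resident macrophages of the brain and depend on the receptor CSF1R for survival, so that a CSF1R inhibitor removes most of them. When the drug is withdrawn the surviving cells divide and refill the brain within weeks, and macrophages of other origin can also enter the niche. LPS, a component of Gram-negative bacterial walls, is sensed by the receptor complex of Tlr4, Ly96 and Cd14, which drives NF-kB and interferon target genes. The labels' gate does not separate microglia from border-associated macrophages, the macrophages of meninges and perivascular spaces, by a marker of their own.

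The instrument that sorted the cells differed between the groups. All 5 PBL libraries were sorted on a MoFlo XDP on 1 day (day 3 of the 5 sorting days), and all 4 PL libraries on a MoFlo Astrios, replicates 1 and 2 on day 4 and replicates 3 and 4 on day 5, so that depletion, sorter and sorting day cannot be told apart in these 9 libraries. Of the other groups, LL and LBL were sorted on the XDP, PP on the Astrios, and PBP on the Astrios except for replicate 5, which was sorted on the XDP on the same day as PBL. Sorting day also nearly coincided with depletion in these groups: LBL replicates 1 to 4 were sorted on day 1 and LL replicates 1 to 4 on day 2, with replicate 5 of each on the other of these days, and PP was sorted on day 5 and PBP replicates 1 to 4 on day 4. Total counts were 5806269 to 9056425 per library in PL and 5670450 to 7287523 in PBL. The RNA quality number, an integrity score on which higher is better, was 6.5 to 9.1 in PL, lowest in replicate 3, and 7.4 to 7.9 in PBL.

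Of 16632 genes tested, 1828 (11.0%) were higher in PBL and 1845 (11.1%) were lower at a Benjamini-Hochberg adjusted p under 0.05 (edgeR quasi-likelihood test, fitted to all 29 libraries), and these genes are named called here. The rises were larger than the falls: 1176 genes (7.07%) rose and 145 (0.872%) fell at least 2-fold among the called ones. The lowest library of one group lay above the highest of the other in 2706 genes (16.3%), among them 1249 of the called rises and 891 of the called falls. With the sorter added as a term, which rests on the contrast of PBP replicate 5 with the other PBP libraries, the median standard error (SE) of a log2 fold change went from 0.265 to 0.5065 and 0 genes were called higher and 3 (0.0180%) lower (Cd38, Crybb1 and Prkce, singled out because the count was small; Prkce was not called without the term). PBP replicate 5 lay above the other 4 PBP libraries in 1444 of the 1828 genes called higher (79%), against 31.9% of all tested genes, and below them in 1443 of the 1845 called lower (78.2%), against 31.5%. A term for a neuron marker score left 5 of the rises and 12 of the falls, and a term for RNA quality left 1120 and 1133. Counts of calls below therefore describe these 2 sets of libraries, and values of LBL against LL, groups sorted on 1 instrument but mostly on different days, are set beside them. The shares of all tested genes, 11.0% higher and 11.1% lower, are the reference for each list count. Falls were more frequent and rises less frequent among well-expressed genes. Of 6495 tested genes with at least 20 CPM in PP, 431 were called higher and 1542 lower. Lists of well-expressed genes were not compared with genes of like level. In LBL against LL these shares were 0.487% higher and 0.722% lower, so 0 calls in a short list is near them and shows no absence of a difference.

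**Figure D1:**
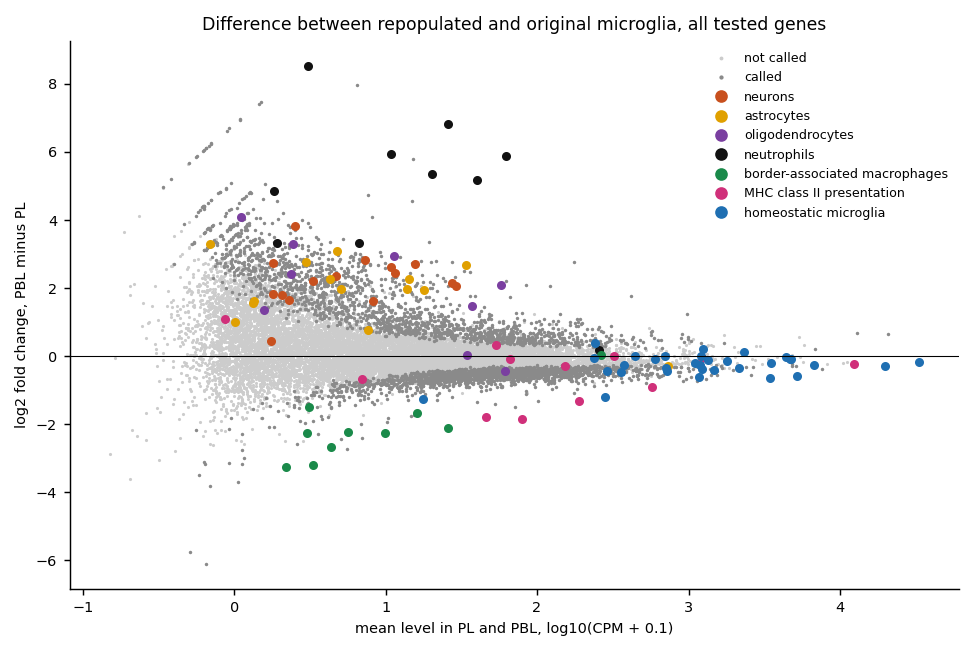
Log2 fold change of PBL over PL for each tested gene (vertical axis) against its mean level in the 2 groups as log10(CPM + 0.1) (horizontal axis), with members of 7 marker lists coloured. Most neuron, glial and neutrophil markers lie above 0, mostly at low levels. Homeostatic microglial genes lie mostly near or just below 0 at high levels. Border-associated macrophage genes reach the lowest values of these lists, at low to middle levels, and MHC class II genes the next lowest, at middle levels.

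Neutrophil markers were among the largest rises. Among called genes without overlap and with a mean of at least 20 CPM in the higher group, 6 of the 10 largest rises were the neutrophil markers Camp, Ltf, Ngp, S100a9 and S100a8 and the monocyte-list gene Chil3. The other 4 were Atp1b2, Kif1a, Myt1l and Syne1. Camp, the cathelicidin precursor of neutrophil granules, measured 0, 0.356, 1.3 and 0 CPM in PL and 45, 14.9, 39.4, 75.6 and 78.4 CPM in PBL. All PBL libraries lay above all PL libraries, and the log2 difference was 6.82 (SE 1.12, adjusted p = 0.000628). Ngp, another granule protein, stood at 0, 0.891, 6.87 and 0.132 CPM in PL and 129, 49.4, 86, 156 and 196 CPM in PBL, and replicate 3 had the highest value of PL. S100a9, an alarmin subunit abundant in neutrophils, gave 0.124, 0.356, 2.01 and 1.19 CPM in PL and 33.7, 15.6, 30.3, 66.4 and 50.3 CPM in PBL, a log2 difference of 5.34. Its partner S100a8 differed by 5.18 and the iron-binding Ltf by 5.93. Lcn2, a siderophore binder of neutrophils and reactive glia, was higher by 3.32 (SE 0.71, adjusted p = 0.00214). No PL library held a count of Cd177, a neutrophil surface protein, while PBL libraries held 5.55, 1.6, 5.78, 3.41 and 13.5 CPM. Against the level of 3 counts over the PL group, 0.101 CPM, Cd177 was at least 59.0-fold higher.

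Of 18 neutrophil markers, 10 were tested, 9 were called higher and none lower. The median log2 fold change was 5.26 (0.02 over all tested genes), and leaving out 1 library at a time gave 7 to 9 calls. The group mean of their log2 CPM was -0.62 to 0.13 outside PBL and 4.5 in PBL. Members near 0 elsewhere could pass the low-count filter only through PBL, and 8 were tested without PBL replicate 1, 3 or 4. The count and median of this list were thus largely fixed by the filter and are no test. Csf3r, the granulocyte colony-stimulating factor receptor that microglia also express, was the member not called. The mean log2 CPM of the tested neutrophil markers was -0.65 to 1.48 in PL and 3.41 to 5.03 in PBL. PBP replicate 5, sorted on the day and instrument of PBL, was at 0.29, and Camp there was 0.621 CPM. LBL libraries, sorted on the same type of instrument, had Camp at 0 in all 5. The list's median log2 difference between LBL and LL was -0.95 with 0 members called, a comparison of values near the floor (group means -0.34 and -0.09). No XDP library outside PBL reached the PBL level. With the sorter as a term, which for these genes sets 0.777 CPM of S100a9 in PBP replicate 5 against 0 in the other PBP libraries, the list median was 1.56 and S100a9 and S100a8 went to -0.28 and -1.56. Chil3, which is on the monocyte list and not on the neutrophil list, was 1 of 2 called of the 7 tested monocyte markers (28.6%, against 11.0% of all tested genes). The other was Fn1, fibronectin, which rose by 2.64 (adjusted p = 0.000512) and was also higher in LBL than in LL, by 2.01. Ccr2, the receptor that marks inflammatory monocytes, measured 3.11, 3.74, 5.09 and 11.2 CPM in PL and 5.02, 1.6, 1.02, 4.35 and 1.91 CPM in PBL and was not called (log2 fold change -1.07, adjusted p = 0.0842).

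Most tested markers of neurons, astrocytes and oligodendrocytes were higher in PBL. Of 15 tested neuron markers 12 were called higher (80%, against 11.0% of all tested genes) and 0 lower, with a median log2 fold change of 2.21. Snap25, a synaptic vesicle fusion protein, measured 10.7, 7.13, 10.9 and 11.1 CPM in PL and 29, 36.2, 53.6, 60.1 and 44 CPM in PBL (log2 fold change 2.15, SE 0.45, adjusted p = 0.00236), with no overlap. Camk2a, the kinase of excitatory synapses, rose by 2.44, the neuronal splicing factor Rbfox3 by 2.82, Gad1, which makes the transmitter GABA, by 3.81, the dendritic Map2 by 2.71 and the neurofilament gene Nefl by 2.74. The leading rises outside the lists included the axonal motor Kif1a (3.36), the neuronal transcription factor Myt1l (2.92) and Syne1 (2.81), which encodes a large nuclear envelope protein.

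Among 14 tested astrocyte markers 9 were called higher (64.3%, against 11.0% of all tested genes) and 1 lower (median 1.98). The glutamate transporter Slc1a2 rose from 3.24, 4.63, 8.52 and 5.82 CPM in PL to 10.6, 10.5, 32.6, 30.4 and 26.2 CPM in PBL, a log2 difference of 1.98. Gfap, the astrocyte filament, rose by 3.09, the glycolytic Aldoc by 2.68, S100b by 2.76 and Aldh1l1 by 3.3. The exception was Slc1a3, a glutamate transporter that microglia also hold, which was chosen for mention after its value was seen and was lower by 0.30 and kept its call only without PL replicate 3 or PBL replicate 5. Among 9 tested oligodendrocyte markers 6 were called higher (66.7%, against 11.0%) and 1 lower (median 2.09), the latter not without PL replicate 1. Mbp, a myelin protein, measured 10.8, 21.4, 30.5 and 25.7 CPM in PL and 42.3, 65.5, 147, 107 and 108 CPM in PBL, with all PBL libraries above all PL libraries. Mobp rose by 2.94, Mal by 3.28, Cldn11 by 2.41 and Ermn by 4.1, the last at 0, 1.07, 0, 3.1 and 5.46 CPM in PBL, where 2 libraries had no count. None of 4 oligodendrocyte precursor markers was called (median 1.63; 0.53 in LBL against LL).

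Across all 29 libraries, the mean log2 CPM of the neuron and of the astrocyte markers was higher in every XDP library than in every Astrios library, and that of the oligodendrocyte markers was not: PBL replicate 1 (2.50) and LL replicate 1 (2.68) on the XDP lay below PBP replicate 2 (2.69) on the Astrios. Sorter, sorting day and group cannot be told apart in these values. The summed level of the neuron markers was 32.8 to 65.9 CPM in PL and 154 to 295 in PBL, and on the XDP it was 68.9 to 286 in LL, 113 to 274 in LBL and 207 in PBP replicate 5, against 30.1 to 63.8 in the other PBP libraries. The summed astrocyte markers overlapped between the groups, at 769 to 1034 CPM in PL, highest in replicate 1, and 731 to 976 CPM in PBL, and Slc1a3 made up most of them (1003, 773, 732 and 728 CPM in PL and 623, 614, 592, 704 and 759 CPM in PBL). The summed oligodendrocyte markers were at 131 to 166 CPM in PL and 168 to 326 CPM in PBL. Between LBL and LL, 0 neuron, astrocyte and oligodendrocyte markers were called, and the list medians were 0.48, 0.10 and 0.19. Snap25 was 44.9 CPM in PBP replicate 5 and 9.14 to 17.5 in PBP replicates 1 to 4. With the sorter as a term the medians of the 3 lists were -0.09, 0.07 and 0.10. Vessel and ventricle markers were few at these levels. Of 5 tested endothelial genes 1 rose (20%), the receptor Flt1 (1.95). So did 1 of 4 pericyte genes (25%), Rgs5 (3.69), and 1 of 5 choroid plexus genes (20%), the transthyretin gene Ttr (1.73). The endothelial list also had 1 fall (20%), that of Pecam1. Of all tested genes 11.0% were higher and 11.1% lower, and 1 call in so short a list is near these shares. No member of these 3 lists was called higher in LBL against LL, and the medians were 0.48, 0.82 and -0.37. The call of Flt1 was lost without any library except PBL replicate 5, that of Rgs5 without PL replicate 1, 2 or 3 or PBL replicate 4, and that of Ttr without PL replicate 1 or 2. The haemoglobin genes Hba-a2, Hbb-bs and Hbb-bt rose by 2.84, 2.76 and 2.43, 3 of 5 red cell genes (60%, against 11.0% of all tested genes), with PBL replicate 2 at the PL level (5.1, 5.7, 6.63 and 2.91 CPM in PL and 25.8, 1.24, 78.4, 35.5 and 31.8 CPM in PBL for Hbb-bs). Near-identical globin copies can share reads, and none of them was called without PL replicate 1, 2 or 4 or PBL replicate 3, and 1 without PBL replicate 4 or 5. The red cell list had a median of -0.41 and 0 calls in LBL against LL.

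**Figure D2:**
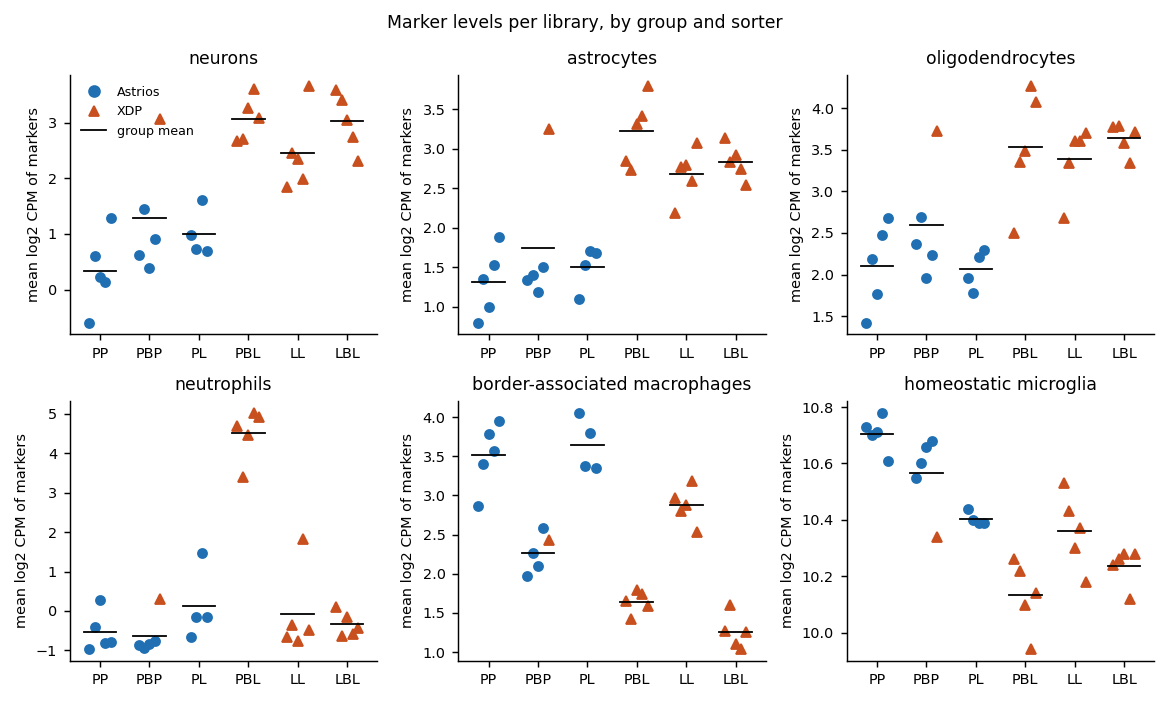
Mean log2 CPM of the tested markers of 6 lists in each of the 29 libraries (points), by group, with the sorter shown by symbol and the group mean by a line. Neuron and astrocyte levels are higher in every XDP library than in every Astrios library, oligodendrocyte levels overlap between the sorters in 2 XDP libraries (PBL replicate 1 and LL replicate 1), neutrophil levels are highest in PBL, and the border-associated macrophage level is lower in each depleted group (PBP, PBL, LBL) than in its undepleted partner (PP, PL, LL).

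Genes of border-associated macrophages were lower in PBL. All 7 called members of the 10 tested fell (70%, against 11.1% of all tested genes), with a list median of -2.24, and leaving out 1 library at a time gave 7 to 8. Mrc1, the mannose receptor, measured 52.6, 41.9, 40.1 and 34.1 CPM in PL and 7.53, 8.88, 10.2, 3.72 and 17.8 CPM in PBL. The groups did not overlap, and the log2 difference was -2.12 (SE 0.29, adjusted p = 5.45e-05). Pf4, a chemokine stored in platelets and made by these macrophages, gave 21.3, 8.38, 20.5 and 14.8 CPM in PL and 3.4, 3.2, 4.93, 2.48 and 3.01 CPM in PBL and fell by 2.26. The hyaluronan receptor Lyve1 fell by 3.2, the lectin Cd209f by 3.27, the carbonyl reductase Cbr2 by 2.67, Ms4a7 by 2.23 and the coagulation factor subunit F13a1 by 1.68. Cd163, Folr2 and Stab1 were tested and not called. In bulk libraries such as these, fewer cells of a type and less RNA per cell cannot be told apart.

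The same 7 genes were called lower in LBL than in LL, both sorted on the XDP, against 0.722% of all tested genes. They were lower by 1.8 for Mrc1, 2.1 for Pf4, 2.55 for Lyve1, 3.7 for Cd209f, 1.91 for Cbr2, 1.73 for Ms4a7 and 2.02 for F13a1. After saline (PBP against PP) Mrc1 and Cd209f were called lower, by 1.19 and 2.99, and the median of the list was -1.27. With the sorter as a term the list's median in PBL against PL was -2.30, although Cd209f went to 1.93, and with the neuron score as a term 4 of its members were still called lower.

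Genes of MHC class II antigen presentation were lower in PBL for the peptide-binding chains, the invariant chain and 1 peptide-loading chain. Of 12 tested members 5 fell (41.7%, against 11.1% of all tested genes) and 0 rose, with a list median of -0.26. H2-Aa, which encodes the alpha chain of I-A, measured 144, 133, 112 and 104 CPM in PL and 46.6, 27.9, 30.1, 43.3 and 24.9 CPM in PBL, and the log2 difference was -1.84 (SE 0.33, adjusted p = 0.000754). Its beta chain gene H2-Ab1 fell by 1.32 and the I-E beta chain gene H2-Eb1 by 1.8. Cd74, the invariant chain that escorts class II molecules, measured 934, 715, 702 and 639 CPM in PL and 517, 347, 345, 419 and 358 CPM in PBL, a fall of 0.91 (adjusted p = 0.00765). No PBL library reached the lowest PL library for these 4 genes. The other fall was that of H2-DMb2, a beta chain of the peptide-loading molecule H2-DM, chosen for mention after its value was seen: it fell by 0.67 (adjusted p = 0.0383) with overlapping groups (5.72, 10.3, 8.05 and 9.79 CPM in PL and 6.27, 5.15, 7.31, 3.41 and 4.51 CPM in PBL). That call was lost without PL replicate 2, 3 or 4 or PBL replicate 2, 4 or 5. The peptide-loading genes H2-DMb1 (-0.30, adjusted p = 0.0621) and H2-Oa (0.31, adjusted p = 0.0941) were not called.

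None of the 12 was called in LBL against LL, where H2-Aa differed by -0.65 (adjusted p = 0.396) and Cd74 by -0.43 (adjusted p = 0.427). PBP replicate 5 was at 30.1 CPM of H2-Aa, below PBP replicates 1 to 4 at 43.2 to 65.6, and the sorter term took H2-Aa to -0.90 and Cd74 to -0.32, neither called. Border-associated macrophages express class II genes, and their markers fell in the same libraries (7 of 10, with a mean log2 CPM of 3.35 to 4.06 in PL and 1.43 to 1.8 in PBL); their part in the class II values was not tested. The sequences below are shown because class II promoters are known for a shared X and Y box arrangement, and they cover 2 genes that fell (H2-Aa, H2-Eb1) and 2 that were not called (H2-DMb1, H2-Oa), picked after the values were seen. Each is the 150 bases before the annotated RefSeq start in build GRCm38.p6, 5′ to 3′ on the gene's strand, with the X-like core GNAAC and the Y box TGATTGG in capitals.
H2-Aa (chr17:34287824-34287973, minus strand): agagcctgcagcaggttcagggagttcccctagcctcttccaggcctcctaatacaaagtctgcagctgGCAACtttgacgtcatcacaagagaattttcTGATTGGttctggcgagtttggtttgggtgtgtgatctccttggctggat
H2-Eb1 (chr17:34305717-34305866, plus strand): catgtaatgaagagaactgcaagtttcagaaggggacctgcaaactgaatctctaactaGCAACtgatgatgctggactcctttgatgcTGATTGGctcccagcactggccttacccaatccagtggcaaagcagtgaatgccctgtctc
H2-DMb1 (chr17:34153041-34153190, plus strand): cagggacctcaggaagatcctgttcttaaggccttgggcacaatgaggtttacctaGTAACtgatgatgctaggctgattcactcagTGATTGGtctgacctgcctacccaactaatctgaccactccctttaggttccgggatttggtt
H2-Oa (chr17:34092229-34092378, plus strand): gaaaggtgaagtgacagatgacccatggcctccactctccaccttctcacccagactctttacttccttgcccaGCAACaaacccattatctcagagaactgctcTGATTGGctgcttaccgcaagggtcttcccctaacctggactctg
The core began 31, 30, 31 and 31 bases before the Y box in the 4 genes, in the order printed. Among 32851 RefSeq promoter windows of 300 bases, read on both strands, 7.82% held TGATTGG and 84.8% held GNAAC. A pair on 1 strand with 15 to 45 bases between the starts was held by 0.828%, and by 5 of the 8 class II list members that had an entry. The pair was present in genes that fell and in genes that were not called. It was absent from the entries of H2-DMb2, which fell, and of H2-DMa and Ctss, which were not called.

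Homeostatic microglial genes, those that mark the surveying state, were mostly a little lower in PBL. Of 32 tested, 15 fell (46.9%, against 11.1% of all tested genes) and 0 rose, with a median log2 fold change of -0.22, and leaving out 1 library at a time gave 10 to 16 falls. Among all tested genes with at least 20 CPM in PP, 1542 of 6495 were called lower. Between LBL and LL 5 of the 32 fell in LBL and 0 rose (median -0.06), against 0.722% and 0.487% of all tested genes. P2ry12, the receptor that guides processes towards ATP, measured 7548, 5638, 5411 and 6291 CPM in PL and 4979, 4206, 3905, 3270.2 and 4484 CPM in PBL. All PBL values lay below the lowest PL value, and the log2 difference was -0.58 (SE 0.11, adjusted p = 0.00102). Gpr34, a lysophosphatidylserine receptor, fell by 0.60, and the Fc receptor-like gene Fcrls by 0.64. Tmem119, a microglial surface marker, measured 4125, 4702, 4724 and 4193 CPM in PL and 4279, 4757, 4132, 3707 and 4939 CPM in PBL and did not pass the test (log2 fold change -0.02, adjusted p = 0.903). The fractalkine receptor Cx3cr1 (-0.19, adjusted p = 0.212) and the drug's target receptor gene Csf1r (-0.09, adjusted p = 0.654) were not called either. Tmem119, P2ry12, Cx3cr1 and Csf1r, defining markers of the labelled cell type, were thus high in all 9 libraries.

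Crybb1 stood out from the other homeostatic genes. This crystallin gene, a microglial marker, measured 321, 385, 418 and 437 CPM in PL and 188, 170.2, 192, 153 and 154 CPM in PBL, a fall of 1.19 (SE 0.11, adjusted p = 2.53e-08) without overlap. It was lower by 1.15 in LBL against LL and by 1.13 in PBP against PP, both called, and -1.08 (adjusted p = 0.0384) with the sorter as a term. PBP replicate 5, the only PBP library sorted on the XDP, held 161 CPM, below PBP replicates 1 to 4 at 166 to 183 CPM. Fcrls was lower in all 3 depletion comparisons too (-0.64, -0.50 and -0.56 in PBL, LBL and PBP). For P2ry12 the difference was -0.31 in LBL against LL (adjusted p = 0.173) and -0.17 in PBP against PP (adjusted p = 0.575), neither called, while PBP replicate 5 had 7459 CPM against 10465 to 11315 in the other PBP libraries. The list's mean log2 CPM was 10.39 to 10.44 in PL, 9.94 to 10.26 in PBL and 10.34 in PBP replicate 5, and its median with the sorter term was 0.08. Gpr165, an orphan receptor gene on the list, fell by 1.26 and was also lower in LBL, by 1.05.

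Of 18 microglial transcription factors 1 rose (5.56%) and 3 fell (16.7%), near the 11.0% and 11.1% of all tested genes. Sall1, which maintains microglial identity, measured 90.9, 69.9, 128 and 111 CPM in PL and 41.9, 88.5, 48.8, 64.7 and 97.8 CPM in PBL (log2 fold change -0.55, adjusted p = 0.0222), and without PL replicate 3 it was not called (-0.38, adjusted p = 0.123). Maf and Mef2c fell by 0.49 and 0.47, and Zeb2 rose by 0.42, a call lost without PL replicate 2. None of the 4 was called in LBL against LL, where the list median was -0.01.

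**Figure D3:**
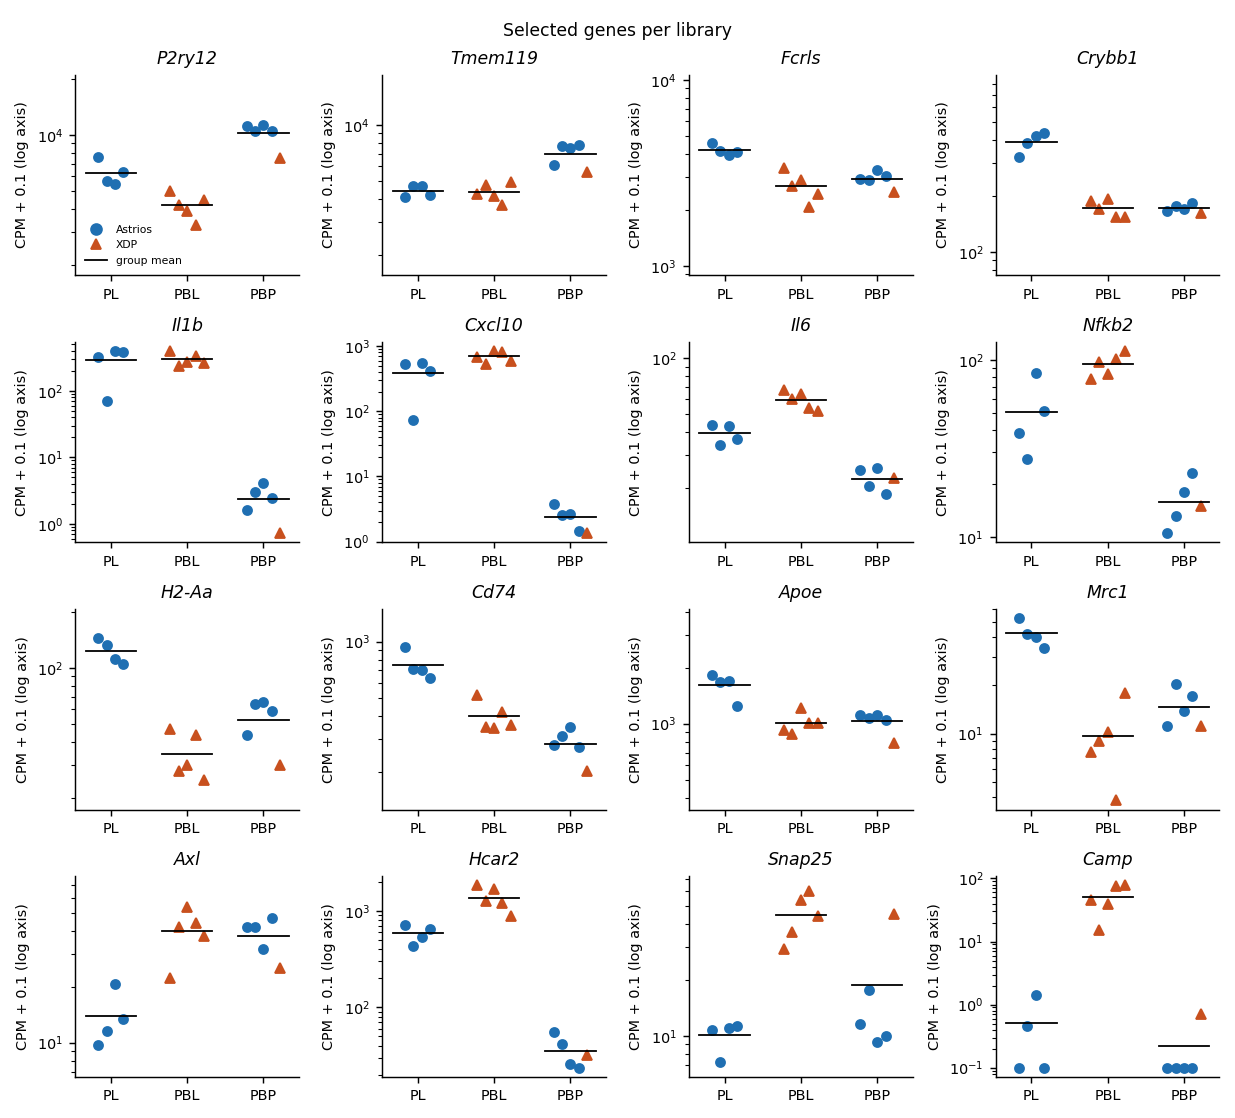
CPM + 0.1 on a log axis in each PL, PBL and PBP library (points) for 16 genes, with the sorter shown by symbol and the group mean by a line; PBP met no LPS. Crybb1, Axl and Mrc1 take similar levels in PBL and in all PBP libraries, Snap25 and P2ry12 in PBP replicate 5 lie away from the other PBP libraries towards PBL, and Il1b and Cxcl10 in PL replicate 2 lie below the other PL libraries.

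The acute cytokine response was present in both groups, and few of its genes were called between them, although a gene not called may still differ. Il1b, the pro-inflammatory interleukin, measured 320.1, 70.6, 398 and 381 CPM in PL and 390.3, 237, 271, 332 and 262 CPM in PBL, against 0.621 to 4.03 CPM in PBP, which met no LPS. The groups overlapped and the log2 fold change of PBL over PL was 0.03 (SE 0.37, adjusted p = 0.968). PL replicate 2 was the lowest of the 4 PL libraries for Il1b, for Tnf (158, 52.2, 203 and 174 CPM in PL and 169, 110.1, 175, 174 and 161 CPM in PBL) and for the interferon-induced chemokine Cxcl10 (523, 73.4, 549.8 and 419 CPM in PL and 690.4, 537, 847, 814 and 599 CPM in PBL). Tnf differed by 0.10 (adjusted p = 0.863), Cxcl10 by 0.83 (SE 0.50, adjusted p = 0.236) and the monocyte attractant Ccl2 by -0.01 (adjusted p = 0.992), and none was called. Without PL replicate 2 the values were -0.30 for Il1b, -0.18 for Tnf and 0.49 for Cxcl10, also not called. Il6 was the single called member of 15 tested cytokines (6.67%, against 11.0% of all tested genes called higher). It measured 43.6, 33.9, 43.1 and 36.5 CPM in PL and 67.2, 60.0, 63.9, 54.2 and 52 CPM in PBL, a rise of 0.60 (SE 0.14, adjusted p = 0.0046). Il6 was also called higher in PBP against PP, which met no LPS, by 0.58 (adjusted p = 0.0426), and it was not called in LBL against LL (0.24, adjusted p = 0.485), where 0 cytokines were called (median -0.04). Leaving out PL replicate 2 gave 0.53 for Il6 (adjusted p = 0.0231), and 2 cytokines were called without PL replicate 3, PL replicate 4 or PBL replicate 1.

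Of 18 chemokines 1 rose (5.56%) and 3 fell (16.7%), near the 11.0% and 11.1% of all tested genes. Ccl7, a monocyte attractant, measured 175, 37.3, 118 and 92.8 CPM in PL and 48.4, 35.3, 36.7, 31.3 and 34.7 CPM in PBL and fell by 1.5, Ccl24 by 0.85 and Ccl6 by 0.59, and Cxcl14, which neurons and other non-immune cells also make, rose by 3.03 from at most 0.947 CPM in PL. None of these 4 was called in LBL against LL (list median -0.15), while Ccl6 was lower in PBP than in PP, by 0.46 (adjusted p = 0.0218).

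NF-kB targets and feedback genes rose in 7 of 34 tested (20.6%, against 11.0% of all tested genes) and fell in none (median 0.32), and this count rested on few libraries. Nfkb2, the p100 precursor subunit, measured 38.6, 27.4, 84.8 and 51.3 CPM in PL and 77.6, 97, 82.8, 101 and 112 CPM in PBL (log2 fold change 0.89, adjusted p = 0.0107). Socs1, a cytokine signalling inhibitor, rose by 1.47, the RNase gene Zc3h12a by 0.77 and the A20-binding Tnip1 by 0.67. Nfkbia, the inhibitor whose gene is an early NF-kB target, differed by 0.27 (adjusted p = 0.0884) and was not called. Without PL replicate 2, 1 of the 34 was called and the median was 0.08, with Nfkb2 at 0.69 (adjusted p = 0.0551), and without PBL replicate 4 or 5 the count was 2. The sum over the list was 6643 CPM in PL replicate 2, and up to 11700 in the other PL and 11200 to 12700 in PBL libraries. In LBL against LL 0 of the 34 were called (median 0.07).

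Calls on the TLR4 signalling list were no more frequent than among all genes: of 28 tested 2 rose (7.14%) and 3 fell (10.7%), against 11.0% and 11.1% of all tested genes. Tlr4 itself measured 81.8, 98, 59.5 and 70.0 CPM in PL and 55.7, 59.7, 53, 48 and 40.2 CPM in PBL (log2 fold change -0.59, adjusted p = 0.00782), the co-receptor Ly96 fell by 0.56, and Ikbkg, the regulatory subunit of the IKK complex, by 0.57, while the kinase gene Irak1 rose by 0.53. In each of these 4 the groups overlapped. The rises numbered 0 without PL replicate 1 or PBL replicate 4 and 1 without PL replicate 2, PL replicate 4 or PBL replicate 5, and the falls numbered 1 without PBL replicate 5. Between LBL and LL 0 of the 28 were called (median 0.01), Tlr4 differed by -0.08 (adjusted p = 0.866), and PBP replicate 5 was at 111 CPM against 158 to 197 in the other PBP libraries. With the sorter term Tlr4 was at 0.11.

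Of 37 tested interferon-stimulated genes 5 were called higher (13.5%, near the 11.0% of all tested genes) and none lower (median 0.22), and without PL replicate 2 the count was 1 (median 0.18). It was 2 without PL replicate 4, PBL replicate 1 or PBL replicate 3, and 3 without PBL replicate 2 or 4. Stat2, a subunit of the interferon-activated factor ISGF3, measured 73.7, 118, 123 and 75.3 CPM in PL and 143, 179, 159, 152 and 148 CPM in PBL (log2 fold change 0.68, adjusted p = 0.00469). Ifi204 rose by 0.76, the oligoadenylate synthetase gene Oas1a by 0.70 and Parp14 by 0.43, and Ifit1 differed by -0.34 (adjusted p = 0.369) without a call. Ifi204 was 0.77 in LBL against LL (adjusted p = 0.0558) and higher by 1.15 in PBP against PP (adjusted p = 0.00685). Among GTPase genes, 1 of 13 guanylate-binding and immunity-related GTPase genes was called higher (7.69%, against 11.0% of all tested genes), Gbp5, at 0.93 (adjusted p = 0.0102). Of these, 1 of the 37 interferon-stimulated genes (median 0.26) and 0 of the 13 GTPase genes (median 0.08) were called higher in LBL against LL.

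Class I presentation genes moved in both directions, with 4 of 17 higher (23.5%, against 11.0% of all tested genes) and 3 lower (17.6%, against 11.1%). In LBL against LL 3 were higher, against 0.487% of all tested genes, and 0 lower (median 0.17). Nlrc5, the class I transactivator, measured 5.1, 8.02, 17.5 and 8.87 CPM in PL and 22.2, 26.8, 34.9, 28.9 and 17.9 CPM in PBL and rose by 1.4 (SE 0.29, adjusted p = 0.00158). H2-K1, a classical class I heavy chain whose reads near-identical copies can share, rose by 0.53 here and by 0.52 in LBL against LL (adjusted p = 0.0119). H2-M3 rose by 0.57, and Psmb10, an immunoproteasome subunit, fell by 0.50.

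Disease-associated microglia genes, which mark microglia near plaques and damage, also split, with 4 of 24 higher and 4 lower (16.7% each, against 11.0% and 11.1% of all tested genes). The list had 2 rises and 0 falls in LBL against LL (median 0.01), against 0.487% and 0.722% of all tested genes. The rises numbered 2 without PL replicate 2, and the falls 1 without PL replicate 1 and 2 without PL replicate 2 or PBL replicate 2, 4 or 5. Axl, a receptor for phosphatidylserine-bound Gas6, measured 9.58, 11.4, 20.6 and 13.4 CPM in PL and 22, 41.6, 53.2, 44.1 and 37.2 CPM in PBL. The groups did not overlap, and the log2 difference was 1.52 (SE 0.25, adjusted p = 0.000244). Axl was also higher in LBL than LL, by 2.03, and in PBP than PP, by 1.74. Ch25h, which makes 25-hydroxycholesterol, measured 59.7, 25.3, 56.5 and 44.6 CPM in PL and 295, 133, 229.5, 207 and 120.3 CPM in PBL and rose by 2.07 (adjusted p = 0.0013), with 2.0 in LBL against LL and 0.88 in PBP against PP (adjusted p = 0.705). Lpl, lipoprotein lipase, rose by 0.69. Apoe, the lipid carrier, measured 1826, 1684, 1706 and 1242 CPM in PL and 924, 881, 1219, 1004 and 1008 CPM in PBL and fell by 0.68 (adjusted p = 0.000939), with PBP replicate 5 at 783 CPM below the other PBP libraries at 1046 to 1117. In the complement list, 3 of 17 complement and Fc receptor genes fell (17.6%, against 11.1% of all tested genes) and none rose (against 11.0%). The falls were 0.38 for Fcgr3, 0.33 for C3ar1 and 0.28 for Fcer1g. The number that fell was 1 without PL replicate 1 and 5 without PBL replicate 1. None of the 17 was called in LBL against LL (median 0.05).

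Nuclear genes of oxidative phosphorylation were the metabolic list with the most calls: 15 of 29 fell (51.7%, against 11.1% of all tested genes) and 0 rose (median -0.33), and leaving out 1 library at a time gave 10 to 15. Ndufv1, a core complex I subunit, measured 67.3, 50.3, 62 and 65.4 CPM in PL and 37.1, 39.6, 40.8, 37.1 and 40.2 CPM in PBL (log2 fold change -0.65, SE 0.11, adjusted p = 0.000304). Ndufs3 fell by 0.63 and the cytochrome c gene Cycs by 0.87. In LBL against LL 3 of the 29 were called lower (median -0.23), against 0.722% of all tested genes. With the sorter term the PBL list median was -0.04. Calls also differed by longest annotated transcript, as given below. Among genes at 20 CPM or more in PP, 37.1% of those under 1 kb and 40.8% at 1 to 2 kb were called lower. Their median log2 fold changes were -0.28 and -0.32. The part of transcript length in the fall of this list was not tested. Of 8 mitochondrially encoded genes 1 rose, the oxidase subunit mt-Co1 (0.37). Of 22 glycolysis genes Pfkp (1.55) and Pfkm (1.22), both phosphofructokinase subunits, rose, and Aldoa (-0.47) and Bnip3 (-0.63) fell. Cholesterol genes had 3 of 21 higher, among them Fdps (2.0) and the regulator Srebf2 (0.52), and 2 lower, among them Hmgcs1 (-0.55). These shares were near the 11.0% and 11.1% of all tested genes: 12.5% higher (mitochondrially encoded), 9.09% higher and lower (glycolysis), and 14.3% higher and 9.52% lower (cholesterol). The cholesterol rises numbered 1 without PL replicate 1, 2 or 4 or PBL replicate 4, and the falls 0 without PL replicate 1 or 4 and 1 without PBL replicate 3 or 4. The call of Pfkm was lost without any library except PBL replicate 1. The mitochondrially encoded rises numbered 6 without PL replicate 3, 3 without PBL replicate 1 and 0 without PL replicate 1 or 2 or PBL replicate 3, 4 or 5. No member of the mitochondrially encoded, glycolysis and cholesterol lists was called in LBL against LL, and the medians were 0.03, 0.05 and 0.22.

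The remaining lists held few calls. Cell cycle genes had 1 of 25 higher (4%) and 4 lower (16%), against 11.0% and 11.1% of all tested genes. The thymidine kinase gene Tk1 rose by 0.94, and Ccnd1, a cyclin that microglia express at rest, fell by 0.57, Mcm6 by 0.69 and Birc5 by 3.0. Birc5 measured 0.373, 1.6, 1.3 and 4.37 CPM in PL and 0.358, 0.178, 0, 0.155 and 0.41 CPM in PBL. The falls numbered 2 without PL replicate 1 and 1 without PL replicate 4, and Tk1 was not called without PL replicate 1 or 2 or PBL replicate 2, 4 or 5. Of the stress, lysosome and TGF-beta lists, 1 of 15 immediate early genes (Klf6, -0.50), 1 of 10 heat shock genes (Dnajb1, -0.52), 2 of 23 lysosomal genes (Ctsa, -0.28; Atp6v0d1, -0.56) and 1 of 9 TGF-beta pathway genes (Smad2, -0.62) fell, and none of those 4 lists had a rise. The shares that fell were 6.67%, 10%, 8.7% and 11.1% in that order, near or below the 11.1% of all tested genes. Dnajb1 was not called without PL replicate 1 or 4 or PBL replicate 4 or 5, nor Smad2 without PL replicate 2 or PBL replicate 5, and the lysosomal falls numbered 4 without PL replicate 3, 5 without PBL replicate 1 and 1 without any other library. In LBL against LL 1 of the 25 cell cycle genes, Ccnd1, was called lower (median -0.31), 0 immediate early and 0 heat shock genes were called (medians -0.14 and -0.08), and 1 lysosomal and 1 TGF-beta pathway gene were called higher (medians 0.11 and 0.04). None of 4 CSF receptor and ligand genes was called, and 1 was called higher in LBL against LL (median 0.34). Both tested lymphocyte markers fell, the B cell receptor subunit Cd79b, which microglia also express, by 0.89 and Ighm by 0.73, and Cd79b was also lower in LBL than LL, by 1.44.

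Which differences were also seen between groups sorted on 1 instrument, although mostly on different days? In LBL against LL 81 genes were called higher (0.487%) and 120 lower (0.722%), and that comparison shares no library with PBL against PL. Called higher in both were 42 genes, which is 2.3% of the 1828 and 51.9% of the 81. Called lower in both were 94, or 5.09% of the 1845 and 78.3% of the 120. No gene was called in opposite directions. PBP replicate 5 lay above the other PBP libraries in 10 of the 42 (23.8%, against 31.9% of all tested genes) and below them in 63 of the 94 (67%, against 31.5%). In all 3 comparisons, 11 of the rises and 21 of the falls were called, and in PBP against PP 48 genes (0.289%) were higher and 40 (0.241%) lower.

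Among the shared rises, Hcar2, the receptor for beta-hydroxybutyrate and nicotinic acid, had the highest levels of those named: 722, 431, 537 and 655 CPM in PL and 1849, 1262, 1674, 1200.1 and 879 CPM in PBL. It rose by 1.23 (SE 0.22, adjusted p = 0.000659), by 1.17 in LBL against LL and by 1.32 in PBP against PP. Chst1, a sulfotransferase gene, rose by 1.73 and 1.05 in the 2 LPS comparisons, the podosome scaffold gene Sh3pxd2b by 1.44 and 1.3, the lamin gene Lmnb1 by 1.01 and 1.09, Igfbp4, which binds insulin-like growth factors, by 0.97 and 0.88, and the tetraspanin gene Tspan32 by 0.95 and 0.60. The unnamed gene models Gm14636 (2.81 and 2.17) and Gm26902 (1.98 and 1.96), were also among the 10 largest, with Ch25h and Axl.

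Among the shared falls outside the border-associated macrophage list, Npl, a sialic acid lyase gene, measured 153, 141, 144 and 141 CPM in PL and 73.8, 63.9, 66.1, 36.9 and 47.3 CPM in PBL and fell by 1.33 (SE 0.15, adjusted p = 1.04e-06) and by 1.12 in LBL against LL. Serpinf1, the gene of pigment epithelium-derived factor, measured 67.3, 61.1, 87.1 and 89.3 CPM in PL and 29, 31.4, 28.4, 27 and 28.7 CPM in PBL and fell by 1.4 and 0.98. Pecam1, an adhesion molecule of vessels and some macrophages, fell by 1.75 and 1.82, while the endothelial Flt1 was higher here. Idh2, a mitochondrial dehydrogenase gene, fell by 1.12 and 0.81, Angptl7 by 1.72 and 1.12, and the lymphoid GTPase gene Gimap6 by 1.34 and 0.99. Pecam1, Npl, Serpinf1, Idh2 and Angptl7 were called lower in PBP against PP too, while Gimap6 was not (-0.06, adjusted p = 0.937).

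**Figure D4:**
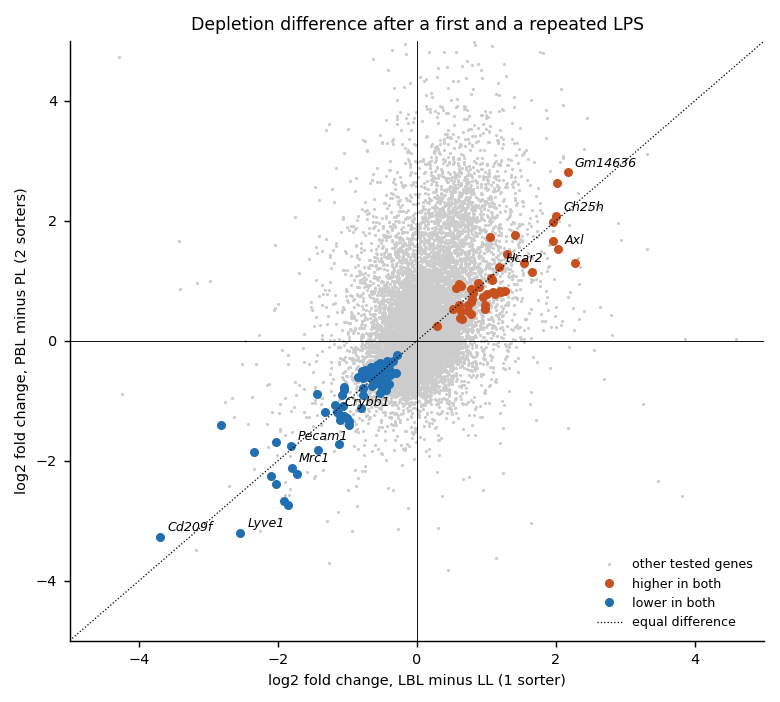
Log2 fold change of PBL over PL (vertical axis) against that of LBL over LL (horizontal axis) for each tested gene, with genes called in the same direction in both coloured; 30 genes lie outside the axes. The 42 genes higher in both and the 94 lower in both lie near the line of equal difference, while many other genes spread along the vertical axis.

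The difference of the differences was tested directly. PBL and PL were sorted on 2 instruments, LBL and LL on 1, and PP and PBP on 1 except for PBP replicate 5. Sorter and LPS history therefore cannot be told apart in these tests. Between the depletion contrast after a first LPS and that after repeated LPS, 2 genes were higher and 2 lower (each 0.0120% of genes tested, adjusted p = 0.0495), with 2417 at an unadjusted p under 0.05. Atp1b2, the glial sodium pump subunit, measured 0.498, 1.07, 1.18 and 2.12 CPM in PL and 18.6, 18.1, 31.5, 27.6 and 47.5 CPM in PBL and differed by 4.25 (SE 0.74) more after the first LPS, and PBP replicate 5 was at 31.8 CPM against 4.83 to 6.56 in the other PBP libraries. Serpinb1a, an inhibitor of neutrophil proteases, had no count in PL and 1.97, 1.24, 1.53, 5.12 and 3.83 CPM in PBL, at least 27.1-fold above the level of 3 counts over PL. Max, the dimer partner of MYC, measured 39.3, 53.7, 41.4 and 40.1 CPM in PL and 22.2, 30.7, 27.5, 21 and 29.9 CPM in PBL, and Tnfrsf11a, the receptor RANK, 42.7, 45.8, 46.8 and 55.7 CPM in PL and 32.1, 31.1, 28.2, 25.9 and 22.4 CPM in PBL. Both were lower in PBL without overlap, by 0.73 and 0.78, while LBL against LL gave 0.24 and 0.12, neither called. These 4 calls were lost under 13 of the leave-one-out fits, including those without PL replicate 1, 2 or 4, as both counts then were 0. Against the depletion contrast after saline no gene was called (smallest adjusted p = 0.0533, 2120 genes at an unadjusted p under 0.05, 17 higher and 46 lower by DESeq2, 0 by limma voom), and without PBP replicate 5, 310 were higher and 430 lower.

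The calls also divided by transcript length, a split chosen after the data were seen. Among genes with at least 20 CPM in PP, where microglia had met neither LPS nor depletion, 30.0% of the 380 with a longest annotated transcript over 8 kb were called higher in PBL and 4.2% lower. At 1 to 2 kb, 1.8% of 1000 genes were called higher and 40.8% lower, and the median log2 fold change went from -0.32 there to 0.22 over 8 kb. Between LBL and LL the same bins had medians of -0.16 and 0.07, and between PBP and PP -0.11 and 0.11. At 20 CPM or more in PP, the median longest transcript was 5425.5 bases for genes called higher, 2423.5 for genes called lower and 3371 for all. Without that limit it was 4073 bases for genes called higher, 2344.5 for genes called lower and 2971 for all tested genes. The RNA quality numbers of the 2 groups are given above, and the part of fragment length or RNA quality in this division was not tested.

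**Figure D5:**
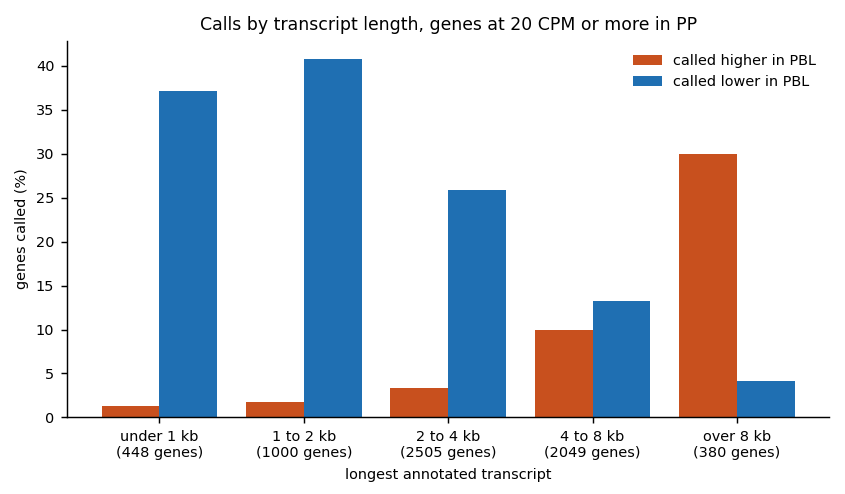
Percentage of genes called higher or lower in PBL than in PL (bars, from 0) in 5 bins of longest annotated transcript, for genes at 20 CPM or more in PP. The share called lower is 37.1% under 1 kb and 4.2% over 8 kb, and the share called higher goes from 1.3% to 30.0%.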

How the data were processed

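Sorted microglia were profiled by bulk RNA sequencing in 29 libraries, 1 per sample, and groups were read from the labels. The authors deposited raw read counts, whole numbers for each gene without normalization. The submitters' processing notes list HTSeq 0.11.0, Picard 2.13.2, SAMtools 1.10, TopHat, cutadapt 2.10 and FastQC 0.11.9 with build GRCm39. The strand setting and the annotation release were not given in those sources. RNA quality numbers, an integrity score, concentrations, sorters and sorting days are as the authors deposited them.

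The main test was edgeR 4.0.16, run in R 4.3.3 on the counts (filterByExpr, TMM, robust quasi-likelihood fit, 1 coefficient per group, two-sided, Benjamini-Hochberg over 16632 of 36982 genes). CPM values use TMM-scaled library sizes. A list's mean log2 CPM uses a prior count of 2. The members, the 34 marker and pathway lists and the tests were chosen with earlier results of these data known. Genes named are the 10 largest rises and 10 largest falls among called genes without overlap and at 20 CPM or more, the same among those also called in LBL against LL, up to 4 called members per list and a set of standard markers; other genes named are said to be chosen after their values were seen, or are those of a count of 5 or fewer. Some genes that this rule names are not reported here. Alternatives were RLE and total-count scaling, no filter, DESeq2 1.42.0, limma voom 3.58.1, the compared groups alone, terms for sorter, sorting day, neuron score, RNA quality and replicate number, PL of 1 sorting day, and each library left out. Counts of list members without each library, calls by transcript length and positions of PBP replicate 5 were added after the data were seen. The labels give 1 sample per library and say no more of the animals, so a p-value reflects the spread among libraries, which may be technical. The test was checked on simulated data, where it recovered 44 of 96 genes changed by 1 on the log2 scale (45.8%) and 79 of 99 changed by 2 (79.8%). Of its calls there, 3.9% were false. The simulated libraries held no effect of sorter or sorting day, so that share does not carry over to the real calls. With such recovery, a gene that was not called may still differ. No pair of the 16 within PL and within PBL agreed within sampling noise (chi-square per degree of freedom 6.8 to 25.59). A group at 0 counts is below 0.101 CPM in PL and 0.0972 in PBL, the level of 3 counts over the group, which covers counting error only. Promoters are from RefSeq (GRCm38.p6) and transcript lengths from GENCODE on the same build, matched by symbol for 97.5% of tested genes; no coordinate was carried between builds. Overlapping antisense genes cannot be told apart without strand.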

Additional observations from a re-analysis of the deposited data

Results flagged for a closer look

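The 4 genes Atp1b2, Serpinb1a, Max and Tnfrsf11a had a depletion difference after the first LPS that differed from that after repeated LPS by the interaction test, by 4.25, 8.32, -0.97 and -0.9 in that order (log2; edgeR quasi-likelihood test, adjusted p = 0.0495 each). Serpinb1a had no count in PL, so its fitted 8.32 is no size of the difference. Its PBL mean was at least 27.1-fold above the level of 3 counts over the PL group.

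In 21 of 350 sets of values examined, 1 library lay far from the others of its group, near the 1 in 20 that chance gives. In PL these were replicate 1 for the summed levels of GBP and IRG GTPases (1372 CPM), TGF-beta signalling (3647 CPM) and astrocyte markers (1034 CPM), Slc1a3 (1003.0 CPM), Lyve1 (10.3 CPM) and Ermn (0.373 CPM), replicate 2 for the summed NF-kB targets (6643 CPM, the lowest), Max (53.7 CPM) and Snap25 (7.13 CPM), and replicate 3 for the summed cell cycle genes (320 CPM, the lowest), Gfap (2.49 CPM), Ltf (1.07 CPM) and Ngp (6.87 CPM). In PBL they were replicate 1 for the summed class II presentation genes (17150 CPM) and Aldoa (350 CPM), replicate 2 for Gm14636 (37.5 CPM) and Tnf (110 CPM, the lowest), replicate 3 for Lyve1 (1.53 CPM), replicate 4 for H2-Oa (50.3 CPM, the lowest), and replicate 5 for Aldh1l1 (3.42 CPM) and Igfbp4 (23.9 CPM). The class II sum covers 12 members, of which Cd74, H2-Ab1, H2-Aa and H2-Eb1 had PBL means of 397, 108.8, 34.55 and 20.54 CPM. Most of that sum came from other members.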

How the results depend on the processing

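Counts of calls in PBL against PL were within 1.5 times of 1828 higher and 1845 lower with RLE scaling, total counts, no filter, DESeq2, voom, the replicate block (1545 and 1597) and the PL libraries of day 4 alone (1291 and 1785). With total counts 59.7% of the calls were rises, against 49.8%. Counts moved with the groups compared alone (1107 lower), the sorter term (0 higher, 3 lower), the neuron score (5 and 12), RNA quality (1151 and 1146), sorting day as a term over 4 groups (2 and 2) and the PL libraries of day 5 alone (314 and 684). Leaving out 1 library gave 1060 (without PL replicate 2) to 2082 (without PL replicate 3) higher and 1123 (without PL replicate 1) to 2138 (without PBL replicate 1) lower.

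Shared calls with LBL against LL, 42 higher and 94 lower, moved to 27 and 57 without the filter, 83 and 182 with DESeq2, 0 and 3 with the sorter term, 1 and 8 with the neuron score and 152 lower with RNA quality, and lay at 28 to 50 and 43 to 132 when 1 library was left out (lowest without LL replicate 4). The difference from repeated LPS, 2 higher and 2 lower, went to 0 and 0 with RLE, total counts, no filter, voom, the sorter term and RNA quality, to 17 and 14 with DESeq2, 32 higher with the groups compared alone, 1 and 0 with the neuron score or the replicate block, and 0 to 12 and 0 to 11 without 1 library (highest without PL replicate 3). The difference from saline, 0 and 0, went to 1 higher with RLE, total counts or the neuron score, 2 higher with the replicate block, 5 and 6 without the filter, 17 and 46 with DESeq2, and 0 to 310 and 0 to 430 without 1 library (highest without PBP replicate 5). The cause of these moves was not tested.

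Of 126 named calls, 122 were kept with RLE, 123 with DESeq2, 116 with the replicate block, 101 with RNA quality, 14 with the neuron score and 2 with the sorter term. Log2 fold changes that changed sign with the sorter term were S100a9 -0.28, S100a8 -1.56, Myt1l -0.025, Syne1 -0.071, Gad1 -0.15, Rbfox3 -0.68, Ttr -0.21, Cd209f 1.93, Hbb-bs -1.82, Gpr34 0.023, Tlr4 0.11, Irak1 -0.24, Gbp5 -0.024, Fcgr3 0.095, C3ar1 0.13, Smad2 0.13, mt-Co1 -0.19, Dnajb1 0.39, Atp6v0d1 0.11, Slc1a2 -0.40, Hba-a2 -1.84, Hbb-bt -0.33 and Ctsa 0.22. Those with the neuron score were Slc1a2 -0.092 and Ctsa 0.034. With sorting day as a term they were Myt1l -0.074, Syne1 -0.29, Gad1 -0.23, Rbfox3 -0.42, Cd209f 2.04, Hbb-bs -1.96, Gpr34 0.011, Irak1 -0.11, Dnajb1 0.30, Hba-a2 -1.83, Hbb-bt -0.62 and Ctsa 0.12. No named call changed sign under the other settings. Replicate numbers do not pair the samples: same-numbered PL and PBL libraries deviated together with r = 0.208, 0.142, -0.0349 and 0.029, and 2 of 4 matched their own number best.

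Sorter, sorting day and group coincide, so their shares in a difference cannot be told apart. With 4 and 5 libraries the median SE was 0.265 on the log2 scale. Genes near the 3-count level, among them Ermn, Aldh1l1 and Birc5, carry few reads per library.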
